A study of Sus scrofa with 6 samples.

Results

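The genes of the proteasome and of the ubiquitin-conjugating enzymes were followed in left atrial tissue of 6 male Lanyu miniature pigs. Members were the genes whose symbol in the array's probe annotation begins with PSMA, PSMB, PSMC, PSMD, PSME or UBE2, taken from probe sets with a single symbol and leaving out control probe sets. The rule found 82 probe sets of 61 genes, 37 of the proteasome and 24 of the UBE2 family, among 10069 probe sets with a single symbol. Each gene was read from its probe set with the highest mean over the arrays. UBE2C, an E2 enzyme of mitosis, lay below the filter on dim probe sets, at 29.4 to 37.3 intensity units, and the other 60 genes were tested.

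Damaged and short-lived proteins are tagged with chains of ubiquitin by the successive action of activating (E1), conjugating (E2) and ligating (E3) enzymes. The proteasome then unfolds and cuts the tagged protein. Its core particle is a barrel of alpha rings, which gate the entry, and beta rings, of which some subunits carry the catalytic sites. A regulatory particle with a ring of ATPases binds ubiquitin and feeds the substrate into the core, and other activators can take its place. In heart muscle the system turns over sarcomere proteins and takes part in remodelling under load.

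The animals were all 18 months old, and 1 array was made per animal. MRV animals (n = 2) had mitral regurgitation, made by a hole of 2.8 mm in the posterior mitral leaflet, and were given valsartan, a blocker of angiotensin II signalling, with a daily dose of 3.43 mg/kg that began 1 week ahead of the operation. MR animals (n = 2) had the same lesion without valsartan, and both lesioned groups were killed 12 months after surgery. NC animals (n = 2) were age-matched normal controls with no surgery recorded, so lesion and surgery cannot be told apart in comparisons with NC. In this bulk tissue, fewer cells of a type and less RNA per cell cannot be told apart.

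Values are the authors' normalized intensities on a linear scale, and differences are of log2(intensity + 16), which understates changes of dim probe sets. Array medians lay between 90.2 and 93.4, and with 1 array per animal the precision of a value is set by how few animals there were. Of 7 atrial markers 5 were measured, and all 5 passed the filter. NPPA, the atrial natriuretic peptide, read 20170 and 20039 in MRV, 19049 and 19832.5 in MR, and 18414 and 18864 in NC. NPPB, the related B-type peptide, read 4076 and 4644 in MRV, 8081 and 8253 in MR, and 4509.6 and 4095 in NC, so that MR was above both other groups. SLN, an atrial calcium pump regulator, was lowest in MR1 at 5369 and read at least 8529.8 elsewhere, and GJA5, an atrial gap junction gene, ran from 268 to 584. The ventricular light chain MYL2 read 151.5 and 954 in MRV, 10693 and 2318 in MR, and 203 and 325 in NC. Actin probe sets near the 3' end and near the 5' end, whose ratio is larger in degraded RNA, gave a ratio of 2.30 and 1.87 in MRV, 1.44 and 1.70 in MR, and 1.61 and 1.91 in NC. The control probe set for 28S ribosomal RNA read 341 and 559 in MRV, 187 and 280 in MR, and 117 and 468 in NC. It was lowest on NC1 and highest on MRV2. The part of RNA quality in the results was not tested. NC1 correlated less with NC2 (r = 0.958 over the tested probe sets, which depend on each other) than with MR1 (r = 0.975).

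Proteasome and UBE2 genes were steady over the 6 animals. In 53 of the 60 tested members (88.3%) the highest array was less than 1.5 times the lowest, against 73.9% of the 5408 genes tested in all. The median ratio of highest to lowest intensity was 1.24 for members and 1.32 for all tested genes, and the median SD between replicates within a group was 0.10 and 0.13 on the log2 scale. Members were brighter than most genes, with a median intensity of 991 against 302, and the part of brightness in the smaller spread was not tested. The steadiest member was the ATPase gene PSMC2, whose arrays differed by 1.07 times at most on the probe set used. Its dimmer tested probe sets varied more, from 1003.5 to 1229.8 and from 369 to 474. The 7 members with a wider range were PSMB3 (3.91 times), PSMD10 (2.19 times), UBE2QL1 (2.18 times), PSME4 (1.88 times), PSMD3 (1.83 times), PSMD4 (1.59 times) and PSMB8 (1.51 times), and UBE2E3 (1.48 times) and UBE2F (1.47 times) lay just inside.

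**Figure D1:**
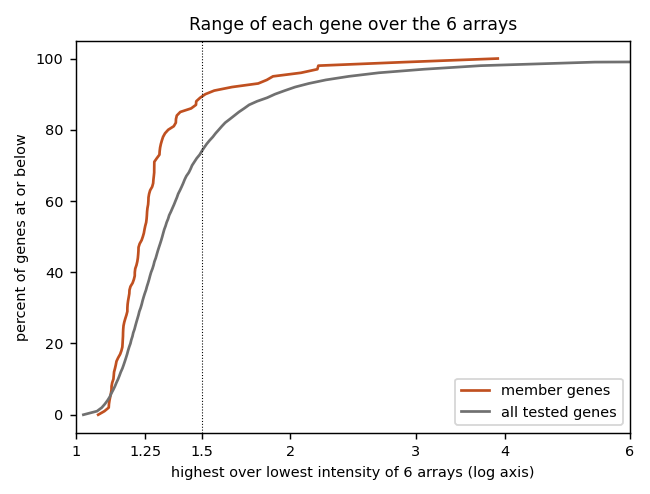
Share of genes (y axis, percent) whose highest intensity over the 6 arrays is at most the given multiple of the lowest (x axis, log scale), for the 60 tested members and the 5408 tested genes. The members' line lies to the left of that of all genes over most of its length, and PSMB3 forms its end at 3.91.

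The arrays were not alike in these genes. MRV2 held the lowest value of 24 members (40%, against 19.3% of all tested genes), and NC1 held the highest value of 22 (36.7%, against 26.5%). The median deviation of the members from their own means was -0.088 on MRV2 and 0.073 on NC1 on the log2 scale, and between -0.019 and 0.011 on the other 4 arrays. Deviations of this size on single animals are near the median absolute group difference of the members. That median was 0.082 in MR minus NC, 0.094 in MRV minus MR and 0.099 in MRV minus NC on the log2 scale. NC animals differed most from each other, with a median absolute log2 difference of 0.15 between replicates over the members, against 0.10 in MRV and 0.084 in MR.

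**Figure D2:**
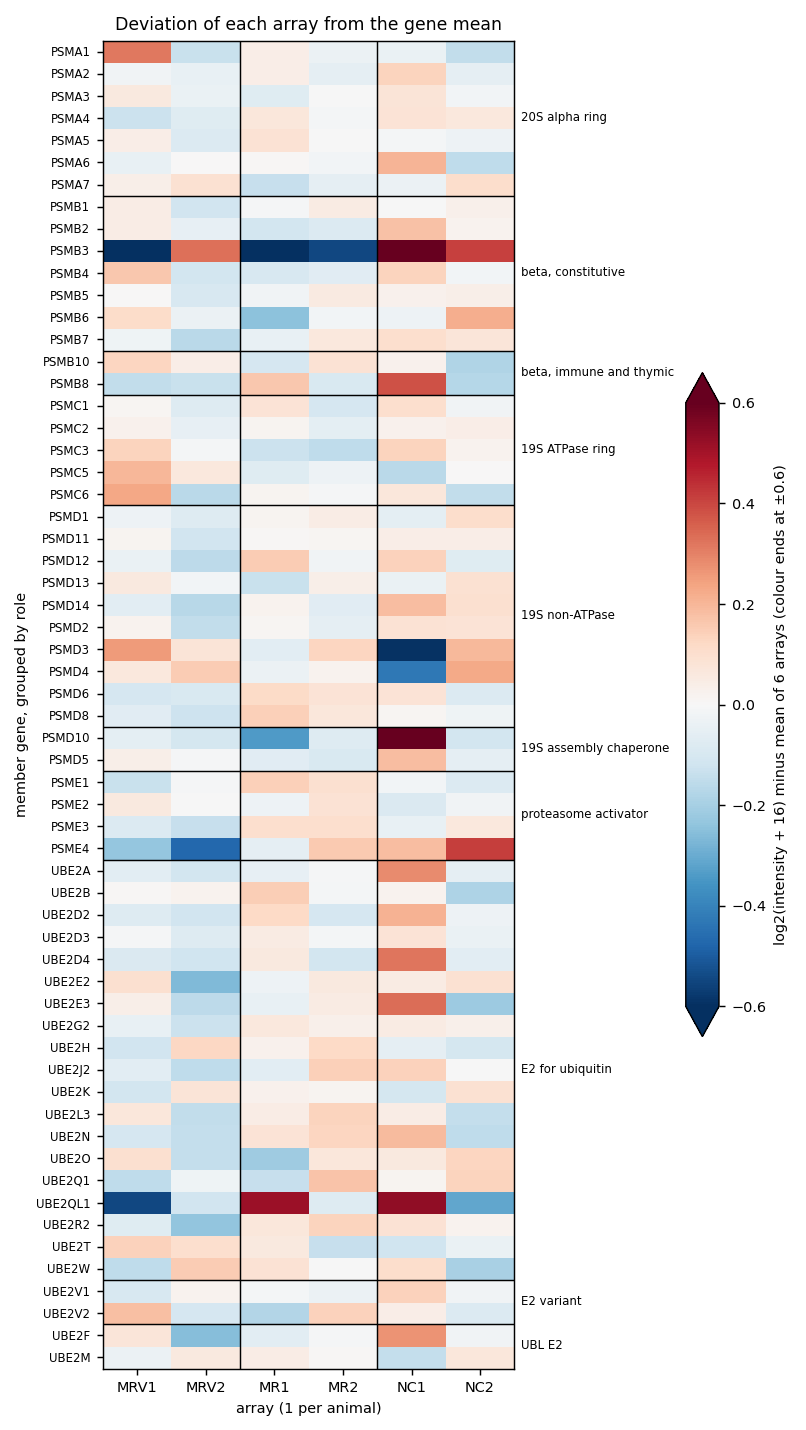
Colour gives log2(intensity + 16) of each tested member (rows, grouped by role) on each array (columns) minus that gene's mean over the 6 arrays. Most cells are pale. PSMB3, PSMD10, UBE2QL1, PSME4, PSMD3 and PSMD4 hold the strongest colours, and several of these come from NC1 alone.

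No member passed the threshold in any comparison (limma, Benjamini-Hochberg adjusted p under 0.05 over 14400 probe sets). In MR minus NC all members had the adjusted p = 0.999955, and 1 probe set of the whole table was called (0.00694% of probe sets, and 0.0185% of the genes). In MRV minus MR the members' adjusted p-values with limma ran from 0.661 to 0.999, and in MRV minus NC from 0.814 to 0.999, with 0 probe sets called in the table (0.0%) in each. At an unadjusted limma p under 0.05 there was 1 member in MR minus NC, PSMB3 (background 4.49% of genes, 2.61% higher and 1.89% lower), 1 in MRV minus MR, PSME4 (background 7.88%, 1.61% higher and 6.27% lower), and 2 in MRV minus NC, PSME4 and PSMB3 (background 5.62%, 1.18% higher and 4.44% lower). All were lower, and these shares of the members are no larger than the background. A log2 difference of at least 0.5 either way was seen for 2 members in MR minus NC, PSMB3 and PSMD10 (background 3.27%), for UBE2QL1 in MRV minus MR (background 5.33%), and for PSMB3 and PSME4 in MRV minus NC (background 4.84%).

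The fit bounds how far most members could have moved. In MR minus NC the unadjusted 95% interval lay within 1.5-fold either way for 54 of 60 members (90%, against 74.6% of all genes), in MRV minus MR for 53 (88.3%, against 69.7%) and in MRV minus NC for 49 (81.7%, against 71.6%). The median log2 difference of the members was -0.030 in MR minus NC, -0.055 in MRV minus MR and -0.075 in MRV minus NC, beside 0.0076, -0.031 and -0.023 for all tested genes. Single arrays moved these medians. Without NC1 the median was -0.0013 in MR minus NC and -0.026 in MRV minus NC, and without NC2 it was -0.062 and -0.11. Without MRV2 it was -0.017 in MRV minus MR and -0.043 in MRV minus NC, and without MRV1 it was -0.088 and -0.12. Without MR1 and without MR2 it was -0.017 and -0.012 in MR minus NC, and -0.033 and -0.036 in MRV minus MR. The 3 comparisons share arrays in pairs, so their values are not independent of each other.

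**Figure D3:**
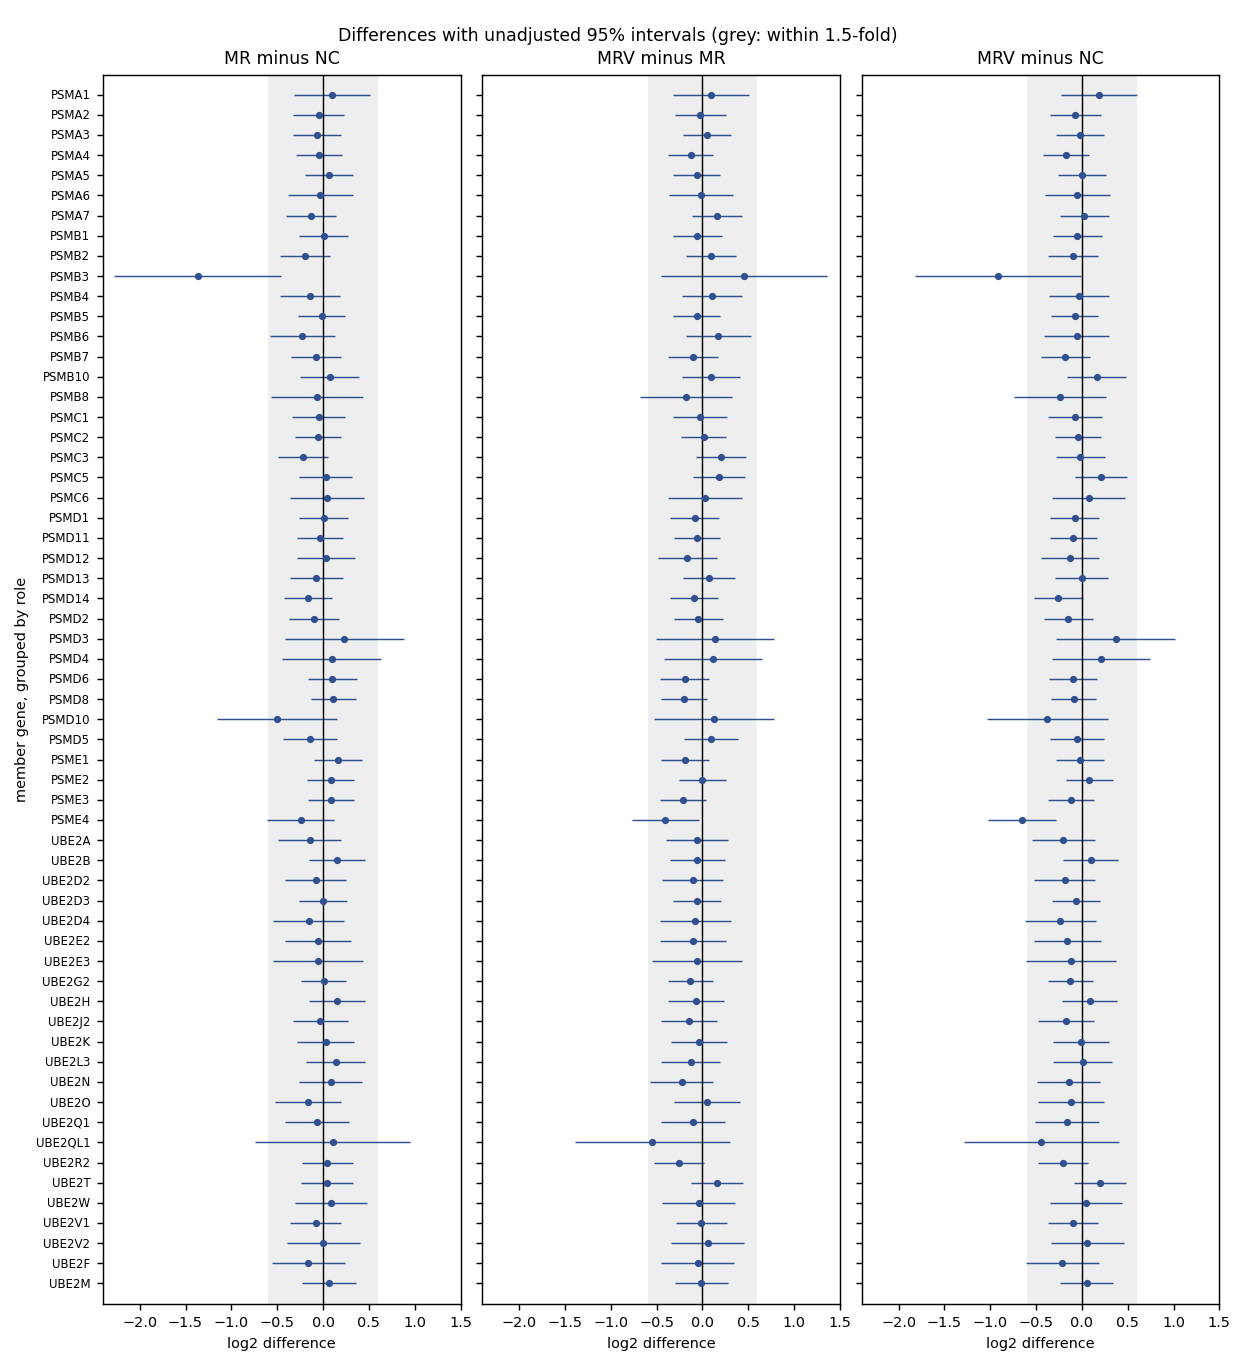
Log2 difference (x axis) of each tested member (y axis, grouped by role) in the 3 comparisons, with points for the estimate, lines for the unadjusted 95% interval of the limma fit, and grey for the range within 1.5-fold. PSMB3 in MR minus NC and PSME4 in MRV minus NC lie farthest from 0 relative to their intervals.

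Alpha ring genes, whose products form the gate of the core particle, varied little. All 7 had ranges between 1.11 and 1.39 times over the arrays, and in MRV minus MR their log2 differences ran from -0.13 to 0.16. PSMA7 read 1933 and 2008 in MRV, 1712 and 1818 in MR, and 1839 and 2032.5 in NC. MR was below both other groups without overlap, by a log2 difference of -0.13 from NC (SE 0.11, limma adjusted p = 0.999955), while MRV and NC overlapped. PSMA4 read 1408 and 1467 in MRV, 1619 and 1527 in MR, and 1634 and 1612 in NC, with -0.13 as the log2 difference in MRV minus MR (SE 0.10, limma adjusted p = 0.808). PSMA3 lay between 2085 and 2316 on all arrays. PSMA1 read 1562 in MRV1, while the other 5 arrays lay between 1126 and 1285.

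The constitutive beta subunits include the catalytic genes PSMB5, PSMB6 and PSMB7, whose ranges over the arrays were 1.11, 1.38 and 1.20 times. PSMB5, which encodes the subunit with chymotrypsin-like activity, read 1592 and 1486 in MRV, 1567 and 1652 in MR, and 1622 and 1631 in NC. Its 95% interval was -0.27 to 0.24 in MR minus NC and -0.32 to 0.19 in MRV minus MR on the log2 scale. PSMB6, the caspase-like subunit, read 2061 and 1862 in MRV, 1606.5 and 1882 in MR, and 1866 and 2217 in NC, so that MR overlapped both other groups. PSMB7, the trypsin-like subunit, read 1879.5 and 1711 in MRV, 1855 and 2004 in MR, and 2057.5 and 2014 in NC. Both MRV arrays of PSMB7 lay below both NC arrays, and the log2 difference was -0.18 with an SE of 0.11 (limma adjusted p = 0.904).

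The inducible subunits PSMB8 and PSMB10 replace catalytic subunits in the immunoproteasome, which cells build under interferon. PSMB8 read 170 and 172 in MRV, 215 and 177 in MR, and 252 and 167 in NC, and its range came from NC1 and MR1. Both MRV arrays were below both MR arrays, the closer pair by little, while NC overlapped both groups. The interval of its difference in MRV minus MR was -0.68 to 0.33 on the log2 scale. PSMB10 read 292 and 273 in MRV, 247 and 283 in MR, and 271 and 232 in NC, with an interval of -0.23 to 0.41 in MRV minus MR. PSMB9 was not analysed here. Of the interferon response markers, 8 of 11 were measured, and their summed intensity ran from 1600.2 to 1788 in MRV, 1537 to 1915 in MR and 1552 to 1676 in NC. Of the 10 leukocyte markers 7 were measured and 3 passed the filter. The defining leukocyte gene PTPRC read between 16 and 19 on all arrays, which is below the filter.

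PSMB3, a beta subunit without catalytic activity, was the member with the widest range. It read 84.1 and 180 in MRV, 82.2 and 90.9 in MR, and 322 and 191 in NC. Both MR arrays and MRV1 read under 100 units, while MRV2 was near the lower NC array. The log2 difference in MR minus NC was -1.37 (SE 0.37, 95% interval -2.28 to -0.46, limma adjusted p = 0.999955), and that in MRV minus NC was -0.92 (SE 0.37, limma adjusted p = 0.904). Without MRV2 the difference in MRV minus NC was -1.40, without MRV1 it was -0.43, and without NC1 it was -0.56. In MRV minus MR the difference was 0.45 with overlap, 0.94 without MRV1 and -0.034 without MRV2. The gene had a single probe set, so no other probe set could be set beside it. The 6 other constitutive beta genes had ranges from 1.11 to 1.38 times over the arrays. They were also far brighter, at 1416 to 3094, while the low arrays of PSMB3 lay near the filter of 61.4.

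**Figure D4:**
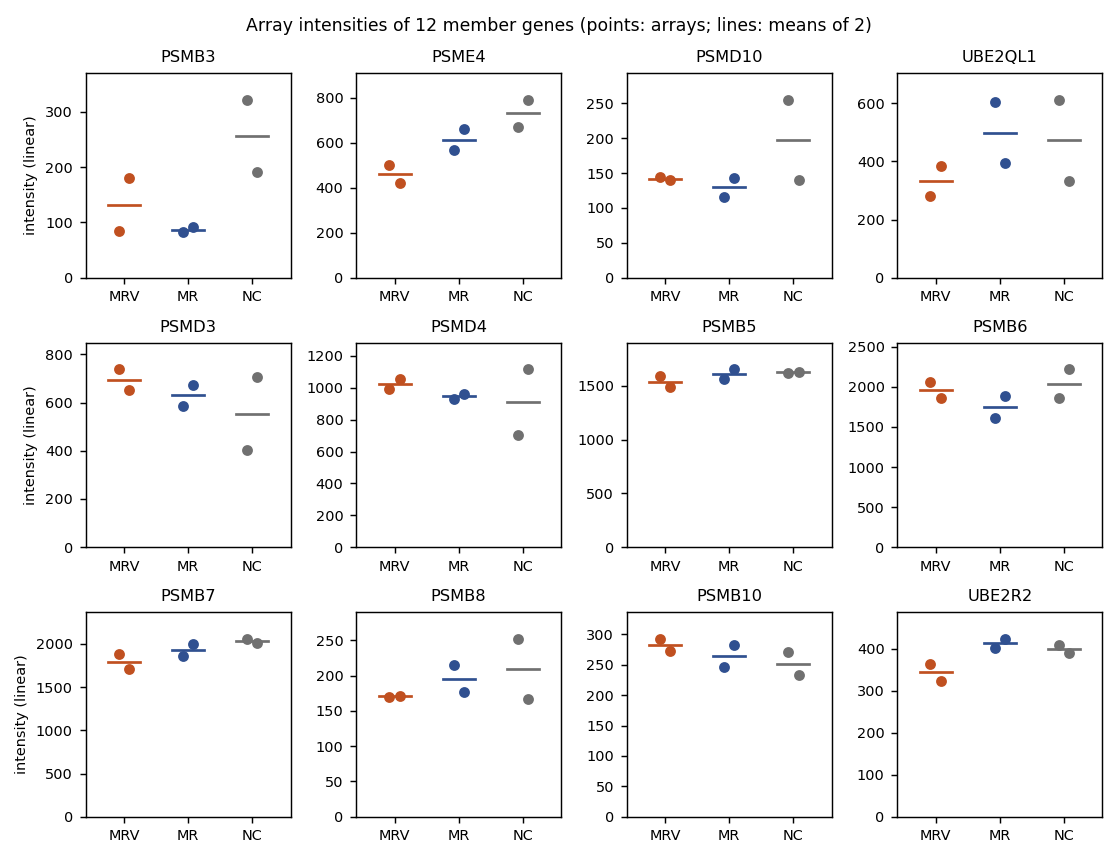
Intensity on a linear axis from 0 (y) in the MRV, MR and NC groups (x) for 12 members, with points for arrays and lines for the mean of 2. PSME4 shows 3 groups without overlap, PSMB3 reads highest in NC, and PSMD3, PSMD4 and PSMD10 have NC arrays far apart.

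The ATPase genes of the regulatory particle, which drive unfolding, included 2 of 5 with MRV above MR and no overlap, where 15% of all tested genes were. PSMC3 read 2039 and 1843 in MRV, 1697 and 1670.4 in MR, and 2037.5 and 1887 in NC, so MR alone was low. Its log2 difference was -0.22 in MR minus NC (SE 0.11, limma adjusted p = 0.999955) and 0.20 in MRV minus MR (SE 0.11, limma adjusted p = 0.757). PSMC5 read 2385 and 2167 in MRV, 1968 and 2030 in MR, and 1853 and 2076 in NC. Here MRV was above both other groups, by log2 differences of 0.18 from MR (limma adjusted p = 0.767) and 0.21 from NC (limma adjusted p = 0.904). PSMC2 read 1493 and 1417 in MRV, 1481 and 1404 in MR, and 1493 and 1508 in NC.

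Of the 10 non-ATPase genes of the regulatory particle, 7 had lower means in MRV than in MR (57.6% of all tested genes did) and 4 were lower without overlap (28.7% of all tested genes). Among these 4, PSMD1 differed by -0.08 on the probe set used but by 0.19 on its other probe set. PSMD8, a scaffold subunit of the lid, read 1332 and 1280.0 in MRV, 1547 and 1465 in MR, and 1408 and 1374 in NC. PSMD6, another lid subunit, read 1025 and 1032 in MRV, 1195 and 1165 in MR, and 1165 and 1038.5 in NC. Their log2 differences in MRV minus MR were both -0.20 (SE 0.10 and 0.11), with limma adjusted p-values of 0.737 and 0.757. PSMD14, the deubiquitinase that removes the ubiquitin chain before the substrate enters the core, read 1496 and 1392 in MRV, 1587 and 1495 in MR, and 1784 and 1672 in NC. Both lesioned groups lay below NC without overlap, with a log2 difference of -0.26 in MRV minus NC (SE 0.11, limma adjusted p = 0.904) and -0.16 in MR minus NC (SE 0.11, limma adjusted p = 0.999955).

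PSMD3, a lid subunit, and PSMD4, a ubiquitin receptor, varied more between the control animals than between groups. PSMD3 read 737 and 650.2 in MRV, 587.5 and 673 in MR, and 402 and 705 in NC. PSMD4 read 994 and 1056 in MRV, 927 and 963 in MR, and 702.5 and 1114 in NC. For both genes NC1 was the lowest of the 6 arrays, and NC2 was the highest for PSMD4. PSMD10, known as gankyrin and a chaperone of regulatory particle assembly, showed the opposite, at 145 and 140 in MRV, 116 and 143 in MR, and 255 and 139.5 in NC. The other assembly chaperone, PSMD5, read 333 and 323 in MRV, 310 and 304 in MR, and 371 and 312 in NC.

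Of the 4 genes of other proteasome activators, 3 read lower in MRV than in MR without overlap, as did 28.7% of all tested genes. PSME4 encodes a large activator that caps the core without needing ubiquitin. It read 499 and 421.5 in MRV, 568 and 660.2 in MR, and 672 and 790.4 in NC. The 3 groups did not overlap, with MRV lowest and NC highest. Its log2 difference was -0.40 in MRV minus MR (SE 0.15, 95% interval -0.77 to -0.04, limma adjusted p = 0.661), -0.65 in MRV minus NC (SE 0.15, 95% interval -1.02 to -0.28, limma adjusted p = 0.814) and -0.25 in MR minus NC (SE 0.15, limma adjusted p = 0.999955). Over all alternatives of the fit, with each array left out in turn included, it stayed between -0.52 and -0.29 in MRV minus MR and between -0.77 and -0.53 in MRV minus NC, with adjusted p-values from 0.445 to 0.997 and from 0.278 to 0.999809. It rests on a single probe set.

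PSME3, the nuclear activator subunit, read 338 and 324 in MRV, 385.1 and 384.7 in MR, and 346.5 and 375 in NC, a log2 difference of -0.21 in MRV minus MR (SE 0.10, limma adjusted p = 0.734). PSME1, an interferon-induced activator subunit, read 703 and 771 in MRV, 855 and 827 in MR, and 765 and 729.9 in NC. MR was above both other groups without overlap. The log2 difference of PSME1 was 0.17 in MR minus NC (SE 0.11, limma adjusted p = 0.999955) and -0.19 in MRV minus MR (SE 0.11, limma adjusted p = 0.757). PSME2, whose product joins that of PSME1 in a ring, read 971 and 928 in MRV, 911 and 989 in MR, and 876 and 916 in NC, with overlap between MRV and MR.

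E2 enzymes pass ubiquitin to the substrate together with a ligase. Of the 19 tested ubiquitin E2 genes, 17 had lower means in MRV than in MR (89.5%, against 57.6% of all tested genes), with a median log2 difference of -0.078. Between 14 and 17 of the 19 were lower when each array was left out in turn, and 17 were lower after quantile normalization and after centring each array on its median. In MR minus NC 9 of the 19 were lower, with a median of 0.0069, and the count was 4 without NC1 and 13 without NC2. The differences were small: of these 17 genes, UBE2QL1 was the only one beyond a log2 difference of 0.5. Of the 19, 5 were lower without overlap (26.3%), a share below the 28.7% of all tested genes.

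UBE2R2, an E2 that works with cullin ligases, read 364 and 323 in MRV, 403 and 423 in MR, and 409 and 389 in NC. Its MRV arrays lay below all other arrays, with a log2 difference of -0.26 in MRV minus MR (SE 0.11, 95% interval -0.53 to 0.02, limma adjusted p = 0.708). UBE2N, which builds signalling chains of ubiquitin with UBE2V1 or UBE2V2, read 1162 and 1127 in MRV, 1321 and 1365 in MR, and 1424 and 1123 in NC. On the probe sets used its partners differed less, with log2 differences in MRV minus MR of -0.01 for UBE2V1 and 0.06 for UBE2V2. UBE2V1 read 1165 and 1268 in MRV and 1238 and 1218.5 in MR. UBE2V2 read 831 and 680.0 in MRV and 645.5 and 806 in MR. The dimmer probe sets of UBE2V1 differed by 0.21 (235.5 and 205.6 in MRV, 184.1 and 191.9 in MR) and by 0.01. UBE2QL1, a little-studied member of the UBE2Q branch, read 280.4 and 385 in MRV, 603 and 395 in MR, and 611 and 334 in NC. MR1 and NC1 were high and the other 4 arrays low, and its log2 difference of -0.55 in MRV minus MR had an interval of -1.39 to 0.30.

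UBE2H and UBE2B, E2 enzymes linked to muscle wasting, had the smallest p-values of their class in MR minus NC. UBE2H read 796 and 942 in MRV, 879.7 and 940.3 in MR, and 831 and 801 in NC, a log2 difference of 0.15 in MR minus NC (SE 0.12, limma adjusted p = 0.999955) without overlap. UBE2B read 2205 and 2224 in MRV, 2435 and 2178 in MR, and 2224 and 1927 in NC, with overlap in each comparison. UBE2T, an E2 of DNA crosslink repair, read 84.1 and 81.5 in MRV, 78.9 and 66.6 in MR, and 67.8 and 72.5 in NC, with MRV above both other groups, but its other probe set differed by only -0.0096 in MRV minus MR. The E2 enzymes of NEDD8, a ubiquitin-like protein that activates cullins, showed overlap between MRV and MR: UBE2M read 609 and 652 in MRV and 645 and 627 in MR, and UBE2F read 255 and 200 in MRV and 230.2 and 240.4 in MR.

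In MR minus NC, 6 members were higher and 12 lower without overlap (10% and 20% of 60), where 15.7% and 12.4% of all tested genes were. Those higher were PSMA1, PSMA5, PSMD8, PSME1, PSME3 and UBE2H. Of those lower, 4 were constitutive beta genes (PSMB2, PSMB3, PSMB4 and PSMB7), and 6 of the 7 genes of that class had lower means in MR (47.4% of all tested genes did). In MRV minus MR, 7 members were higher and 14 lower (11.7% and 23.3%, with background shares of 15% and 28.7%). After quantile normalization these were 13 higher and 11 lower, with 18.7% and 25.4% of all tested genes, so the balance of directions depended on the scaling. In MRV minus NC, 4 were higher and 18 lower (6.67% and 30.0%, background 13.3% and 21.8%), and after quantile normalization 5 and 13 (15.6% and 19.6% of all tested genes). In that comparison all 7 constitutive beta genes had lower means in MRV (55.8% of all tested genes did), but 4 of 7 without MRV2.

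A second look was possible where a gene had several probe sets. There were 15 such members, and 13 of them had further probe sets above the filter, 18 in all. The sign of the difference was that of the probe set used for 11 of 18 in MR minus NC, 12 of 18 in MRV minus MR and 9 of 18 in MRV minus NC. Such small differences were therefore often not shared by the probe sets of a gene. For UBE2A the probe sets had the same sign, at -0.06 and -0.17 in MRV minus MR. For UBE2D2 they did not, at -0.11, -0.27 and 0.08.

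Other genes of the pathway, from a list of 87, gave a similar picture. Of these, 44 had a probe set and 43 were tested, and 0 passed the threshold with limma in each comparison, with 0 at an unadjusted p under 0.05 in MR minus NC, 2 in MRV minus MR and 1 in MRV minus NC. These counts are below the shares of all tested genes (4.49%, 7.88% and 5.62%). Their median log2 differences were 0.0043, -0.029 and -0.016 in these comparisons. The polyubiquitin gene UBB read 15474 and 15596 in MRV, 16101 and 15634 in MR, and 14649 and 14998.5 in NC. The muscle ligase gene FBXO32, also called atrogin-1 and a mark of muscle wasting, read 3952 and 5257.5 in MRV, 3697 and 4119 in MR, and 4200.3 and 4664 in NC, with overlap between MRV and each other group. Both MR arrays of FBXO32 were below both NC arrays, by -0.18 on the log2 scale (limma adjusted p = 0.999955). PSMG1, a chaperone of core particle assembly, read 709 and 596 in MRV, 504 and 560 in MR, and 558 and 669 in NC.

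**Figure D5:**
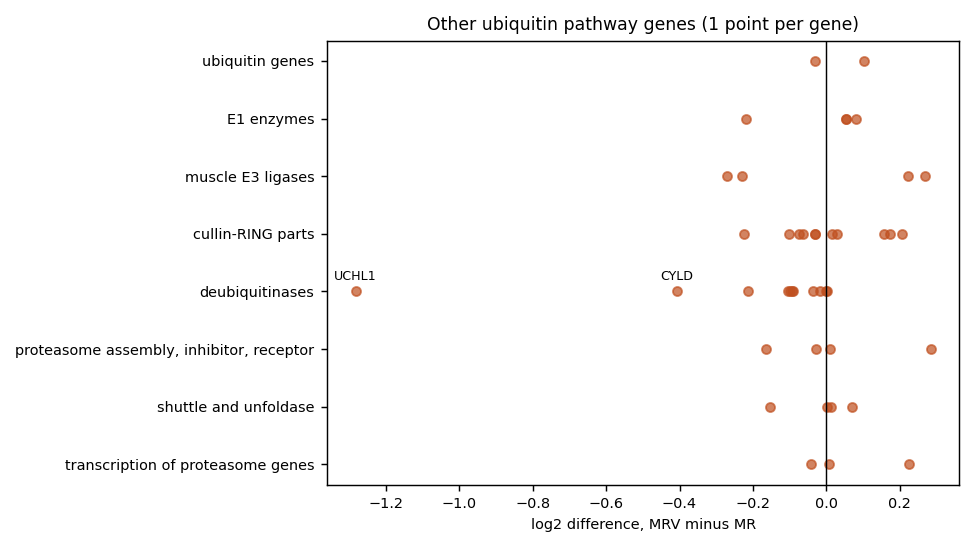
Log2 difference in MRV minus MR (x axis) of the 43 tested genes of the wider ubiquitin pathway, 1 point per gene, by class (y axis). UCHL1 at -1.28 and CYLD at -0.41 lie apart from the other genes, which run from -0.27 to 0.28.

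Deubiquitinases take ubiquitin off proteins, and 10 of 11 tested had lower means in MRV than in MR (57.6% of all tested genes did). The count was 6 of 11 without MRV2, and 8 of 11 after quantile normalization (54.2% of all tested genes). UCHL1, a deubiquitinase abundant in neurons, read 633 and 1186 in MRV, 2277 and 1997.5 in MR, and 1122 and 2384 in NC. Its log2 difference in MRV minus MR was -1.28 with an SE of 0.43 (limma adjusted p = 0.626), while it was -0.84 without MRV1 and -1.73 without MRV2. CYLD, which trims signalling chains, read 126 and 108 in MRV, 138 and 185 in MR, and 142 and 151 in NC, and its log2 difference in MRV minus MR was -0.41 with an SE of 0.16 (limma adjusted p = 0.677), while it was -0.60 without MR1 and -0.21 without MR2. Other classes gave values of both signs: NAE1, part of the E1 of NEDD8, differed by -0.22, CUL4A, a cullin scaffold, by -0.22, STUB1, a chaperone-linked ligase, by -0.23, VCP, the unfoldase that extracts tagged proteins, by -0.15, and COPS6, of the complex that removes NEDD8 from cullins, by 0.21. PSMG3, an assembly chaperone, differed by -0.17, CBLB, a ligase of signalling receptors, by 0.27, RPS27A, a ubiquitin and ribosomal protein fusion, by 0.10, and NFYB, a transcription factor subunit, by 0.23.

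Summed markers of some other cell types differed between the groups. Summed intensity of the 6 measured of 8 adipocyte markers ran from 2524 to 2637 in MRV, 3475 to 4008 in MR and 3779.8 to 4733 in NC, and that of the 3 measured of 4 smooth muscle markers from 3209.9 to 3608 in MRV, 3766 to 4168 in MR and 3916 to 4983 in NC. MRV was below MR in both sums without overlap, although 3 of the 5 tested adipocyte genes had higher means in MRV. Of these 5 genes 0 were lower in MRV than in MR without overlap and 1 was higher, with background shares of 28.7% and 15%. Of the 3 smooth muscle genes 2 were lower without overlap. The brightest, ACTA2, overlapped, at 2058 and 2311 in MRV and 2300 and 2018.5 in MR. The defining adipocyte gene ADIPOQ was below the filter, at 20.3 to 35.1. All 5 endothelial markers were measured and summed to 2550 to 2932 in MRV, 2898 to 3181 in MR and 2831 to 2981 in NC. The 4 measured of 5 fibroblast markers summed to 6089 to 7067 in MRV, 5604 to 6472 in MR and 5095 to 7386 in NC. MRV and MR overlapped in the endothelial and fibroblast sums. Yet all 4 tested endothelial genes had lower means in MRV than in MR, 2 of them without overlap. Of the 3 tested fibroblast genes, 2 had higher means in MRV and 1 a lower mean. The part of these cell types in the members' values was not tested.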

How the data were processed

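The authors deposited intensities, 1 for each probe set of an array, already normalized and not log-transformed. MAS5 and RMA appear in the submitters' processing notes; which of them made the values is not stated there. Of 24123 probe sets, 124 controls were left out, and 14400 with a mean over 6 arrays at or above the 40th percentile (61.4) were tested. Symbols came from the platform annotation, and 60 of 61 members were found by Entrez ID in the RefSeq table of Sscrofa11.1. Log2(intensity + 16) was modelled over all 6 arrays with limma 3.58.1 (lmFit, eBayes; R 4.3.3), with group means as the only terms (3 residual and 2.78 prior degrees of freedom), and Benjamini-Hochberg adjustment ran over all tested probe sets. The fit was also run on simulated data with independent noise and changes larger than nearly all of the members' differences. That run does not bear on the small differences given here. Named genes are the 2 of smallest p in each role class, the 8 of smallest p overall (5 in MRV minus NC), the catalytic subunits, the members of highest and lowest mean, and, for the wider pathway, the 2 of smallest p per class and set genes such as UBB and FBXO32. PSMB1, the member of highest mean, read from 2609 to 2925 on all arrays. Genes with ranges over 1.5 times, or near it, were named after their values were seen. UBE2QL1 was added to the E2 class after the annotation had been read. Members and lists were chosen with earlier results of these data known. Alternatives changed the pseudocount, filter, scaling, probe set rule, samples and replicate block.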

Additional observations from a re-analysis of the deposited data

How the results depend on the processing

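Under 16 alternatives no member and no wider pathway gene passed the threshold in any comparison. The 1 probe set called in MR minus NC (not a member) was lost, with 0 called, under a pseudocount of 1, no filter, quantile normalization, centring on the median, the replicate block, the fit on 4 arrays and the intensity trend, and with each array left out (0 to 0). In MRV minus MR the replicate block called 2 probe sets, neither a member, against 0. Members higher without overlap in MRV minus MR were 13 after quantile normalization, against 7 (18.7% and 15% of all tested genes). With each array left out, which makes overlap less frequent, members without overlap ran from 6 to 21 higher and 12 to 30 lower in MR minus NC, from 7 to 23 and 14 to 32 in MRV minus MR, and from 4 to 14 and 18 to 36 in MRV minus NC. The members' median kept its sign under each alternative, with shifts within 0.0513, the log2 SD of that median between replicates. In MR minus NC the median itself, -0.030, was smaller than this spread, and in MRV minus MR, at -0.055, it was near it. Named genes kept their direction and side of the threshold in 420 of 431 values in MR minus NC, 652 of 670 in MRV minus MR and 217 of 223 in MRV minus NC, and in the others an uncalled sign turned. With 1 array per animal, replicate numbers mark no shared animal. Replicate differences correlated at 0.34 between MR and NC, 0.019 between MRV and MR, and 0.202 between MRV and NC. The source of these correlations was not tested. With 2 animals per group, small changes cannot be seen.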
